A study of Mus musculus with 24 samples.

Results

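Of 157342 stretches of mouse chromatin that were open in at least 1 of 8 ATAC-seq peak lists, 486 were open in the jaw at both stages sampled and in no forelimb list. These regions had a peak in both lists of the mandibular process at E12.5 (E stands for embryonic day), in at least 2 of the 3 lists of E14.5 Meckel's cartilage (MC), and in none of the 3 lists of E14.5 forelimb cartilage (FL). The 486 regions, called members here, were found by merging the peaks of all 8 lists on the autosomes and X, with an overlap of 1 bp counting as presence. The members were thus chosen by their peaks in these 8 ATAC-seq lists, and their peak scores, ranks and widths are given as descriptions with no test. Position, promoter sequence and the histone mark H3K27ac were not used in the choice.

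All libraries came from wild-type C57BL/6 embryos. MC bars and forelimb cartilage were dissected at E14.5 and digested to single cells, and whole mandibular processes were dissected at E12.5, so the earlier tissue holds epithelium, muscle precursors, nerve and vessels as well as the mesenchyme that forms the cartilage. Stage and dissection therefore cannot be told apart. For H3K27ac, 3 CUT&Tag libraries of each E14.5 tissue were used, and none from E12.5. The labels of the E12.5 libraries contradict each other: their titles and protocols say ATAC-seq at E12.5 and were followed, but their description field gives a later stage and Hi-C. Nothing says that replicates came from separate embryos, so p-values measure only the spread between these libraries.

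ATAC-seq cuts DNA with a transposase where nucleosomes leave it accessible, which marks promoters, enhancers and insulators without telling them apart. H3K27ac, acetylation of lysine 27 of histone H3, lies on nucleosomes beside active promoters and enhancers. Meckel's cartilage is the rod of neural crest cartilage around which the lower jaw forms, and the forelimb cartilage comes from lateral plate mesoderm. Transcription factors such as Gsc, Pitx1, Barx1, Pax9 and Alx4 pattern the neural crest mesenchyme of the face before cartilage differentiates.

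A share of the members covered annotated transcription starts, and their sequences show a contrast that the results return to. The lines below give the 250 bases before the start of 6 transcripts whose promoter lies wholly inside a member, from RefSeq GRCm38.p6 (the mm10 build), 5′ to 3′ on the transcript's strand, with every CpG in capitals. The first 4 lay in members without H3K27ac in the combined list of either tissue, and the last 2 in members with the mark in both. Gata2 and Wnt1 were chosen after their values were seen, and the other 4 follow the naming rule. The 6 do not show the whole spread: the same stretch held 6 CpGs at Cd164l2, in an unmarked member, and 20 at Lrfn3, in a marked one.

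Phox2a: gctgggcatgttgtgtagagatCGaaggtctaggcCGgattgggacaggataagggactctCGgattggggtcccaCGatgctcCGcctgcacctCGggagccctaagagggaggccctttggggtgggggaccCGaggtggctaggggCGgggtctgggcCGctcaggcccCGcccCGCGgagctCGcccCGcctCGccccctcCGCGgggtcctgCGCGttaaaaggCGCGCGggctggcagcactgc
Gm15524 (beside Pax9): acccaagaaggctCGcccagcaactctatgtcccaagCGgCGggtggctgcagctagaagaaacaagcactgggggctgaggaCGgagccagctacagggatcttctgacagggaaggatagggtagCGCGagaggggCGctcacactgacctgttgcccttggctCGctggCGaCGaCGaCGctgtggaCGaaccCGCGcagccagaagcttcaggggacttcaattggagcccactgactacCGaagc
Gata2: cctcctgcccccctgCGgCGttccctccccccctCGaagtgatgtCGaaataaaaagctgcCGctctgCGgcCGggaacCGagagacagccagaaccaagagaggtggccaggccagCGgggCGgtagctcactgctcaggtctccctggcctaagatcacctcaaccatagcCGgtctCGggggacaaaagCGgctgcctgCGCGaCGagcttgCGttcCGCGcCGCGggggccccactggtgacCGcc
Wnt1: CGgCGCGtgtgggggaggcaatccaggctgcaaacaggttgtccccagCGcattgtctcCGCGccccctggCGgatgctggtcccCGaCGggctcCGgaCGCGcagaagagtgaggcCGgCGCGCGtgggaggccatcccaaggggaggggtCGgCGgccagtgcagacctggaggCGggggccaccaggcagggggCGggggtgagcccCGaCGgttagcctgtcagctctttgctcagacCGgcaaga
Rufy3: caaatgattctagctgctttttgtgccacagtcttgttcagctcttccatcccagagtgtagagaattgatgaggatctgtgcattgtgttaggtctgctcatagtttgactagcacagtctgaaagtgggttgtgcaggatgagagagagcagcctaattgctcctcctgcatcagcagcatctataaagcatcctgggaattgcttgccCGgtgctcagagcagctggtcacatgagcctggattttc
Jph4: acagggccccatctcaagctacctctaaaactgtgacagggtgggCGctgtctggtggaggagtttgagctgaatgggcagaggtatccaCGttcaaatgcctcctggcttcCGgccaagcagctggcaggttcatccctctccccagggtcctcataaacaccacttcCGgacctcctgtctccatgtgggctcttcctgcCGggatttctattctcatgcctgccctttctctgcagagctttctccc

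The Phox2a sequence is chr7:101818063-101818312 on the plus strand, with 22 CpGs, and Phox2a encodes a homeodomain protein of autonomic and cranial motor neurons. The Gm15524 sequence is chr12:56691681-56691930 on the minus strand, with 16 CpGs. Gm15524 is a transcript that starts beside Pax9, a paired-box gene needed for teeth and facial skeleton. The Gata2 sequence is chr6:88193641-88193890 on the plus strand, with 22 CpGs, and Gata2 encodes a zinc-finger factor of blood and other lineages. The Wnt1 sequence is chr15:98789607-98789856 on the plus strand, with 23 CpGs, and Wnt1 encodes a secreted signal of the developing brain. By contrast the Rufy3 sequence, chr5:88583263-88583512 on the plus strand, holds 1 CpG, and the Jph4 sequence, chr14:55116936-55117185 on the minus strand, holds 5. Rufy3 encodes an adaptor of neurons and vesicle transport, and Jph4 encodes a junctophilin that ties the cell membrane to the endoplasmic reticulum.

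One library bears on every count that follows. The E12.5 replicate 1 list held 74706 peaks over 85.6 Mb, and the E12.5 replicate 2 list held 70042 peaks over 48.2 Mb. The 3 MC lists held 43205 to 54192 peaks over 43.9 to 46.6 Mb, and the 3 FL lists held 47152 to 70636 peaks over 40.7 to 53.0 Mb. E12.5 replicate 1 thus stood apart in the length it covered, and its peaks filled a median of 84.4% of a member, against 34.4 to 51.4% in the other 4 jaw lists. The lists give peaks and no read totals, and sequencing depth is therefore unknown. At the defining cartilage markers Sox9, Col2a1, Acan, Matn1 and Hapln1, all 5 genes had a peak in every MC list, and 4 of 5 in every E12.5 list and in every FL list. Matn1 was at 0 kb in E12.5 replicate 2 and in FL replicates 1 and 3. No member lay within 1 kb of any of the 23 marker genes of cartilage, epithelium, muscle, neurons, endothelium and blood. Over the 4 muscle markers the summed ATAC cover was 5.29 to 40.6 kb in the E12.5 lists, while MC lists had 2.61 to 5.71 kb and FL lists had 1.87 to 6.61 kb, and the highest value came from E12.5 replicate 1, where Pax7 alone had 35.6 kb. Over the 5 epithelial markers it was 7.12 to 8.78 kb at E12.5, while MC lists had 2.74 to 4.78 kb and FL lists had 2.21 to 6.06 kb. The part of these cell types in the members was not tested.

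Most members met the rule at its edge. A peak in all 3 MC lists was found for 124 members, while 362 had a peak in exactly 2. Of the 362, 100 had MC replicates 1 and 2, 131 had replicates 1 and 3, and 131 had replicates 2 and 3. Just outside the rule lay 835 regions with both E12.5 lists and 1 MC list, 1600 with 1 E12.5 list and 2 or 3 MC lists, and 1021 with the jaw lists in place and 1 FL list. Among the 1600, 891 had E12.5 replicate 1 and 709 had replicate 2. For scale, 1104 regions were open in at least 2 of the 3 MC lists and in no E12.5 or FL list (MC alone). Another 1534 were open in both E12.5 lists and no other, and 15788 in all 8 lists. The mirror pattern, both E12.5 lists and at least 2 FL lists without MC, held 370 regions.

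The peaks of the members were middling to low within their own lists. The authors' peak score was ranked within each list, with the top of the list at 0%. The median member ranked at 34.8% in E12.5 replicate 1 and at 58.0% in E12.5 replicate 2. In MC replicates 1, 2 and 3 the medians were 59.5%, 69.7% and 66.3% over the 355, 355 and 386 members with a peak there. E12.5 replicate 1 was the single list in which the median member stood in the upper part of the list. The median of each member's worst rank was 86.8%, and 0 of 486 members ranked within the top 25% of every jaw list that held them. The plot of ranks by list shows this spread.

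**Figure D1:**
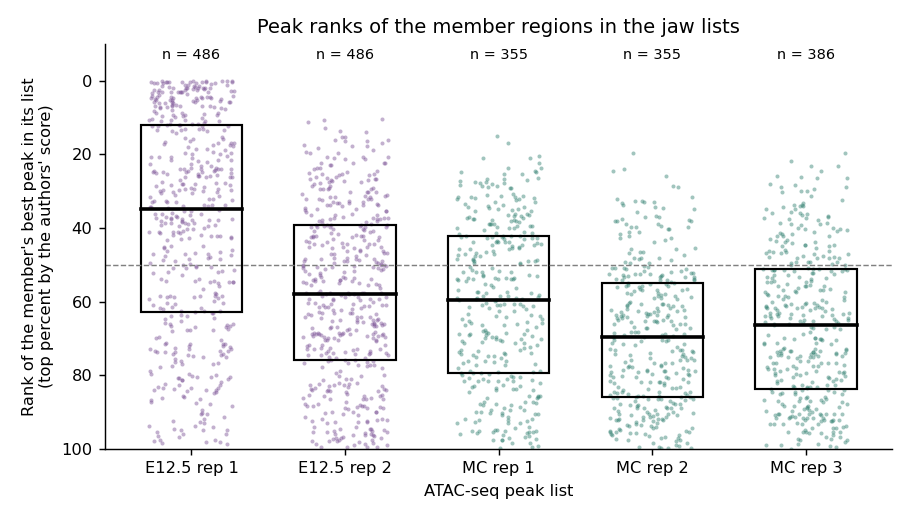
Rank of each member's best peak in the 5 jaw ATAC-seq lists (points), with the median (thick line) and the quartiles (box). The vertical axis is the rank by the authors' score as a percent of the list, with the strongest peaks at the top, and the dashed line marks the middle of a list. E12.5 replicate 1 has a median of 34.8%, and the other 4 lists have medians of 58.0 to 69.7%.

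Members were also wide, with a median of 1704 bp and a range of 360 to 10091 bp, against a median of 782 bp over all merged regions. Width matters to the meaning of presence, since peaks of separate lists can lie side by side within a merged region. In 357 members at least 1 base was covered in both E12.5 lists and in 2 or more MC lists, with a median of 351 shared bp. In the other 129 no base was shared in that way. The authors' combined ATAC-seq lists held 465 members (95.7%) at E12.5, 220 (45.3%) in MC and 0 in FL. The median distance from a member to the nearest FL peak was 3.03 kb, and 118 members (24.3%) had an FL peak within 1 kb.

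The 12 members with the best worst rank, taken over the jaw lists that hold them, include some with no peak in 1 MC list. The member beside Ext2, at chr2:93689617-93691609, had ranks of 15.3% and 16.3% in the E12.5 lists and of 22.3%, 23.9% and 26.1% in the MC lists. It was the only member among the 486 with every rank within 26.1%, its shared stretch was 1155 bp, and the nearest FL peak lay 4644 bp away. Ext2 encodes an enzyme that builds heparan sulfate chains. The member 39080 bp from the nearest end of Apob, at chr12:8055919-8057154, followed with ranks of 32.9% and 17.8% at E12.5 and of 20.9%, 32.6% and 24.5% in MC. It had no H3K27ac in either combined list, and the nearest FL peak lay 12786 bp away. The Phox2a promoter member ranked at 23.1% and 43.9% at E12.5 and at 31.6% and 38.6% in MC replicates 2 and 3, with no peak in MC replicate 1. The Rufy3 member, over an internal start of that gene, ranked at 39.5% and 16.4% at E12.5 and at 23.7%, 45.6% and 32.4% in MC. The other 8 lay at Faxc, 2900026A02Rik, Jph4, Col5a3, Rpl3, C2cd4c, Alx4 and Prss8. Col5a3 encodes a chain of fibrillar collagen V, and its member, at chr9:20811080-20813512, ranked at 38.8% and 29.0% at E12.5 and at 38.8%, 28.9% and 49.2% in MC.

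Genes of the mandibular arch and cranial neural crest held members at 8 of the 48 list genes with a region (16.7%), against 454 of 17587 over all genes (2.58%). Each region was assigned to the smallest protein-coding gene span that holds its centre, or else to the nearest span within 1 Mb. Among them were Alx4, Barx1, Gsc, Irx1, Lhx8, Pax9 and Pitx1, each with 1 member, and the Dlx, Hand and Msx genes had none. These genes are rich in open regions of every class, with 23.2 regions per gene against 8.92 over all genes. Counted per 1000 regions, the list had 7.19 members against 3.09 over all genes. The same count was 16.2 against 9.78 for regions open at E12.5 alone, 8.99 against 7.02 for MC alone, and 4.50 against 2.34 for the mirror pattern. Regions open in all 8 lists went the other way, with 55.8 per 1000 against 100.6 over all genes. The higher rate was thus also found in the other 3 classes open in part of the lists, and with 8 members it is given as a description. Without E12.5 replicate 1 in the rule, 16 of the 48 genes (33.3%) had such a region among 1085 genes in all, and without FL replicate 2 the count was 14. Alx4, Gsc and Pax9 kept a region under the rule without each of the 8 libraries in turn.

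The Alx4 member, at chr2:93648564-93650108 within the gene, had peaks in all 5 jaw lists. Its scores were 596 and 379 at E12.5 and 359, 841 and 703 in MC, where the lists' lowest score is 200. Alx4 encodes a paired-type homeodomain protein of craniofacial and limb mesenchyme. The combined MC H3K27ac list had a peak of 45.7 kb over it with a highest signal of 22, and the FL list a peak of 5.79 kb with a highest signal of 14. The Pax9 member, at chr12:56691206-56692104, lay over the start of Gm15524 and at the end of the Pax9 span. Its scores were 312 and 550 at E12.5 and 356, 366 and 639 in MC, 723 of its 899 bp were shared by the lists, and it had no H3K27ac in either tissue. The Gsc member, at chr12:104557206-104558198, lay 83970 bp from the Gsc start, with scores of 236 and 964 at E12.5 and 203, 401 and 850 in MC. Gsc encodes goosecoid, a homeodomain protein of the lower jaw, and the member had H3K27ac in both tissues, with highest signals of 24 in MC and 23 in FL.

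The Lhx8 member, at chr3:154332676-154334591, lay 2116 bp from the start of Lhx8, which encodes a LIM homeodomain protein of the oral mesenchyme. It had H3K27ac in MC, with a highest signal of 18, and none in FL. An FL ATAC peak lay 260 bp from that member, and its 5 jaw lists shared no base under the rule. The Barx1 and Pitx1 members, at chr13:48668148-48670003 and chr13:55835279-55837596, had no H3K27ac in either tissue. Barx1 and Pitx1 encode homeodomain proteins of the first arch, and the Pitx1 member touched an end of the gene. The Pitx1 scores were 640 and 201 at E12.5 and 574 and 261 in MC replicates 2 and 3, so the second E12.5 peak stood next to the lowest score in the lists. The Irx1 member, 88833 bp from a gene end, was likewise unmarked, and its nearest FL peak lay 67124 bp away.

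Among genes of endothelin, BMP and FGF signalling in the jaw, 4 of 35 held a member (11.4%), against 2.58% over all genes. Per 1000 regions, however, the list had 4.08 members, near the 3.09 over all genes. The 4 members are therefore given as a description. Bmp7, a secreted bone morphogenetic protein, had one 108405 bp from a gene end at chr2:172758193-172759607, with scores of 914 and 423 at E12.5 and 358, 390 and 345 in MC. Spry1, an inhibitor of receptor tyrosine kinase signalling, had one inside the gene with scores of 217 and 335 at E12.5 and 210 and 259 in MC replicates 1 and 2. The Spry1 member had no H3K27ac. Gna11 encodes a G protein subunit downstream of endothelin receptors, and its member carried H3K27ac in both tissues with highest signals of 28 in MC and 36 in FL. Fgfr3, a receptor that restrains growth of cartilage, had a member of 6216 bp inside the gene. E12.5 replicate 1 scored 3838 there, against 424 in E12.5 replicate 2 and 264 to 443 in MC, and no base was shared under the rule.

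Cartilage genes held members at 4 of 28 (14.3%), namely Col9a2, Nkx3-2, Fgfr3 and Runx1. Per 1000 regions the list had 6.44 members, against 3.09 over all genes. Col9a2 encodes a chain of collagen IX, and its member, at chr4:121051247-121055313, scored 1732 in E12.5 replicate 1 and 554 in replicate 2, against 229 and 354 in MC replicates 1 and 3. Nkx3-2, a repressor that keeps chondrocytes immature, had a member 10279 bp from a gene end with H3K27ac in MC, at a highest signal of 16, and none in FL. The Runx1 member lay 216368 bp from the gene's start, unmarked, with scores of 434 and 478 at E12.5 and 333 and 370 in MC replicates 2 and 3. Of 20 hypertrophy and osteoblast genes, Mef2d had a member, marked in both tissues with a highest signal of 30 in each. That list had 3.45 members per 1000 regions. The gene deserts beside Sox9, between Kcnj2 and Slc39a11, held 125 merged regions over 2.17 Mb and 0 members. Beside 486 members among 157342 regions in all, 125 regions are too few for a 0 to show a lack of members.

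Lists for other tissues had members at 0 to 11.1% of their genes. Per 1000 regions, however, endothelial genes had 10.8 members and skeletal muscle genes 8.55, above the 7.19 of the mandibular list, and cartilage genes had 6.44. The rate over all genes was 3.09. The endothelial rate rests on 3 members in 277 regions and the muscle rate on 2 in 234, so their order is given as a description. Members were found at 2 of 18 endothelial genes (Cdh5 and Egfl7), 2 of 20 skeletal muscle genes (Tnnt3 and Tbx1), 2 of 39 limb patterning genes (Meis1 and Alx4) and 1 of 13 blood genes (Runx1). One was found at 1 of 20 epithelial genes (Esrp1) and 1 of 19 tendon genes (Klf4). None of 37 Hox genes and none of 20 neuron and Schwann cell genes had a member, though the Hox genes had only 2.97 regions per gene. In all, the Hox list had 110 regions and the neuron and Schwann cell list 180, too few for a 0 to show a lack. Members also lay at neural genes outside that list, such as Phox2a and Neurog3.

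Most members stood alone along the chromosomes: 308 had no other member within 250 kb. With gaps of up to 250 kb, 5 clusters held at least 4 members, and clustering was not compared with other classes. The Cd82, Alx4 and Ext2 cluster on chromosome 2 held 5 members in 248.8 kb, 3 of them open in all 3 MC lists. Cd82 encodes a tetraspanin, and 3 members were assigned to it. In the one 61215 bp from the Cd82 start, scores were 1576 and 1418 at E12.5 and 693, 244 and 483 in MC. The map of this locus shows FL peaks between neighbouring members except between those at Alx4 and Ext2, and 97 peaks of E12.5 replicate 1 against 34 of E12.5 replicate 2. Broad H3K27ac peaks of both tissues lay over all 5. The cluster with the most members, on chromosome 17 from Stap2 to Ranbp3, held 13 members in 696 kb, 3 of them in all 3 MC lists. The cluster with the second highest count, on chromosome 10 from Onecut3 to Dapk3, held 7 in 701 kb. Safb2, Megf6 and Wscd2 were the other genes with 3 members. At Megf6, a member of 9744 bp scored 4526 in E12.5 replicate 1, against 391 in replicate 2 and 226 to 310 in MC.

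**Figure D2:**
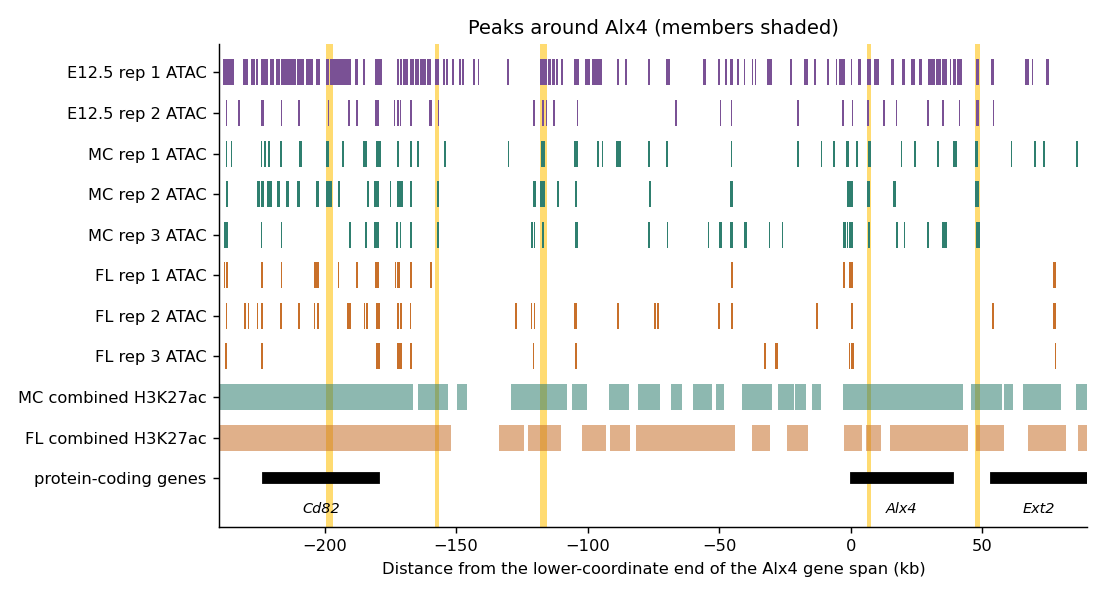
Peaks from each ATAC-seq list and from the combined H3K27ac lists along the Cd82, Alx4 and Ext2 locus, with members shaded. The horizontal axis is the distance in kb from the lower-coordinate end of the Alx4 span, each row is a list, and bars are peaks (drawn at least 0.5 kb wide). The 5 members have peaks in both E12.5 rows and in 2 or 3 MC rows and none in the FL rows.

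The spread over chromosomes was uneven. Chromosomes 4, 7 and 11 held 158 members (32.5%, 95% Wilson interval 28.5 to 36.8), against 20.4% of all merged regions, 18.1% of the mirror pattern and 20.5% of MC alone. The share among regions open at E12.5 alone was 26.9%. Of the peaks in E12.5 replicate 1, 26.9% lay on these chromosomes, against 17.9 to 21.2% in each of the other 7 lists. Without that library in the rule the share was 22.6% of 1226 regions, and without E12.5 replicate 2 it was 32.1% of 1378. Chromosome X held 0 of 486 members, against 1.25% of all regions, and E12.5 replicate 1 had 0.778% of its peaks there against 1.40 to 2.02% in the other lists. The 3 chromosomes were singled out after their values were seen.

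**Figure D3:**
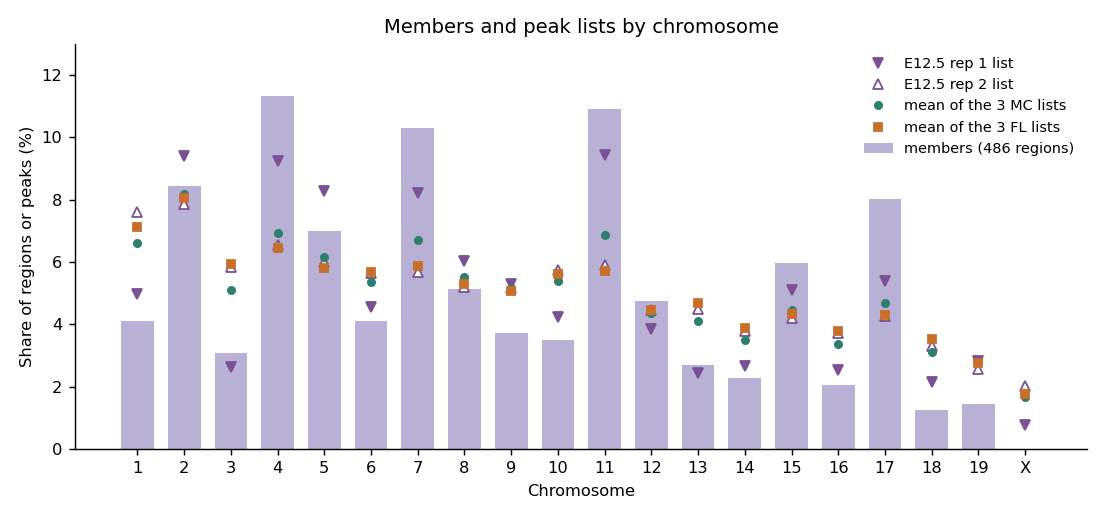
Share of the 486 members on each chromosome (bars) and share of the peaks of the E12.5 lists and of the mean MC and FL lists (symbols), in percent. On chromosomes 4, 7, 11, 15 and 17 the members' share is above that of every list. On these, E12.5 replicate 1 lies above the other lists. On chromosome 12 the members' share of 4.73% is also above every list, and E12.5 replicate 1 is lowest there.

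The share of members near a gene end was lower without E12.5 replicate 1 in the rule. A gene end within 1 kb was found for 107 members (22.0%, interval 18.6 to 25.9), against 13.7% of all regions, 3.53% of MC alone, 9.73% of the mirror pattern and 10.2% of E12.5 alone. Regions in all 8 lists reached 65.3%. Median widths, which can move such a share, were 841 bp in MC alone, 1034 bp in E12.5 alone, 1208.5 bp in the mirror pattern and 2010 bp in all 8 lists. Wilson intervals cover counting error only. Without E12.5 replicate 1 in the rule the share was 10.4%, beside 10.2% for E12.5 alone and 13.7% for all regions. The 1226 regions of that rule were also narrower, with a median width of 1013 bp against 1704 bp in the members. Among the 357 members with a shared base the gene end share was 19.3%. Inside a protein-coding gene lay 313 members (64.4%), against 56.9% of all regions, and 49 lay more than 100 kb from any gene end. Of 480 members off chromosome 18, 69 (14.4%, interval 11.5 to 17.8) lay within 1 kb of a listed transcription start. The share over all regions off chromosome 18 was 11.8%, inside that interval. In all, 49 listed promoters, of 45 genes, lay wholly inside a member.

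H3K27ac was found on most members in both cartilages at E14.5. The combined MC list covered 357 members (73.5%, interval 69.4 to 77.2) and the combined FL list 336 (69.1%, interval 64.9 to 73.1), although the members had no ATAC peak in any FL list. Both tissues marked 309, MC alone 48 (9.88%), FL alone 27 (5.56%), and neither 102 (21.0%). Over all merged regions the MC and FL shares were 55.5% and 55.4%, with 9.26% marked in MC alone and 9.18% in FL alone. In the mirror pattern they were 60.0% and 59.2%, with 36 and 33 regions marked in one tissue. In the MC alone class they were 59.1% and 52.3%, with 148 and 73. At E12.5 alone 147 regions were marked in MC alone and 139 in FL alone. In regions open in all 8 lists the counts were 1702 (10.8%) and 302 (1.91%), so the lean to MC alone was also found where both tissues were open. These lists are pooled, with 1 per tissue, and their peaks are broad, with median widths of 5.51 kb (MC) and 7.36 kb (FL), wider than most members. Their floors also differed: the lowest total signal was 16925 among 47549 MC peaks and 25799 among 39914 FL peaks. How far this bears on members marked in MC alone, such as those at Lhx8 and Nkx3-2, was not tested. Without E12.5 replicate 1 the shares were 57.7% and 52.4%, and the marked-in-one-tissue counts were 154 and 90. Members away from gene ends had shares of 72.3% and 68.6%, near those of all members.

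**Figure D4:**
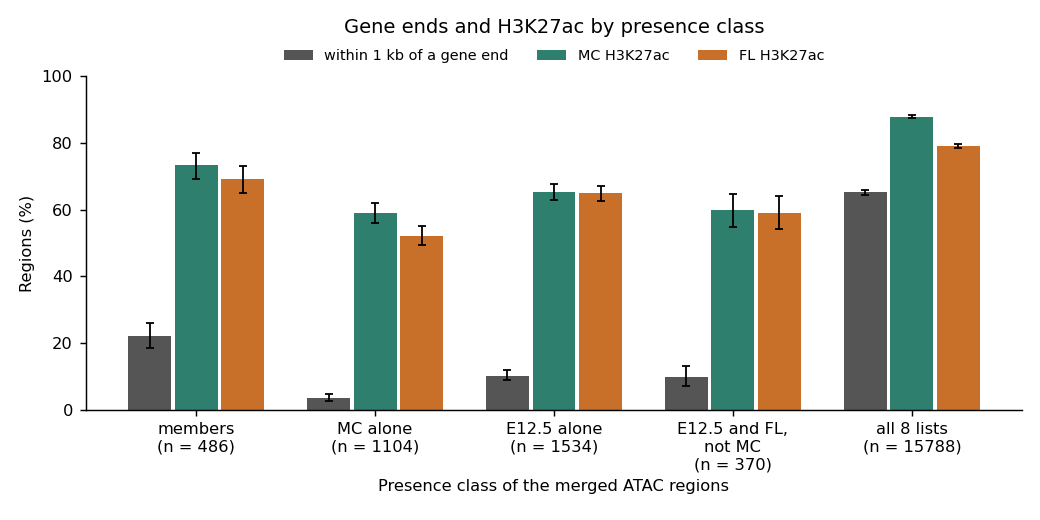
Share of regions within 1 kb of a gene end (grey) and with a peak in the authors' combined MC (green) or FL (orange) H3K27ac list, by presence class in the ATAC-seq lists. Bars start at 0 and carry 95% Wilson intervals. Members have 22.0% near gene ends and 73.5% and 69.1% with H3K27ac in MC and FL.

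The members with H3K27ac in MC and none in FL were led by the one nearest Foxl1, 49925 bp from a gene end at chr8:121180569-121182511. It lay in an MC H3K27ac peak of 55.8 kb with a highest signal of 30, and scored 219 and 413 at E12.5 and 308, 256 and 577 in MC. Foxl1 encodes a forkhead factor of mesenchyme. Next was the member at Gpr84, with a highest signal of 28, and others lay at Nova2, 1700018B08Rik, Cdkn3, Nrg2 and Sh2d5, at 19 to 22. The 4 strongest with FL alone lay at Sparc, Atp8b3, Dapk3 and Kctd7, with highest signals of 23 to 30. Sparc encodes osteonectin, a matrix protein of bone, and its member lay 3523 bp from a gene end in an FL peak of 76.8 kb.

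Single-library H3K27ac lists did not separate the tissues at the members. A peak overlapped 4.32%, 5.76% and 4.94% of members in MC replicates 1 to 3, and 5.97%, 3.91% and 3.70% in FL replicates 1 to 3. The groups overlapped, and the shares over all regions were 3.27 to 4.20%. These lists hold 68477 to 75531 short peaks whose median highest signal is 2, so most members were in no list of a single library. The kb of H3K27ac peaks within 10 kb either side of each region was compared between MC and FL with limma, on log2(kb + 0.5) after scaling each list to the same total. Of 25995 regions with a mean of at least 0.5 kb, 0 passed a Benjamini-Hochberg adjusted p of 0.05, and 1349 (5.19%) had an unadjusted p under 0.05. Of the 486 members, 437 did not reach the mean, and of the 49 tested 0 passed and 0 had an unadjusted p under 0.05. The median log2 difference, MC minus FL, was -0.05 over the 49 and 0.07 over all regions tested. Of the members named above as marked in a single tissue, only those at Nova2 and Atp8b3 were among the 49. Their single libraries leaned against the combined lists. The log2 difference was -0.87 at Nova2, marked in MC alone, and 1.04 at Atp8b3, marked in FL alone. Each had an SE of 0.71, and the libraries of the tissues overlapped at both. Libraries of MC and FL did not overlap in 5 of 49 members (10.2%), against 10.1% of all regions tested. In these 5 (at Asic2, Tarm1, Rasl10b, Slc7a11 and Grip2, named after their values were seen) FL was higher. The member at Asic2 had 0.806, 0 and 0 kb in the MC libraries, against 1.44, 0.902 and 1.63 kb in the FL libraries. Its log2 difference was -1.38 with an SE of 0.71 and an adjusted p of 0.92 in limma. The fit gave the same SE to each of the 49 members, so the SE and p do not measure the spread of this member alone. On simulated data for this comparison, over 25995 regions, the fit recovered 12% of regions planted at a log2 size of 2. At a size of 4 it recovered 97%, so smaller differences would mostly be missed. The -1.38 at Asic2 was the largest difference in size among the 49 members, and it lies below both planted sizes. The 0 of 49 therefore cannot show that the tissues were alike at the members.

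Promoters inside members without H3K27ac held more CpGs at the median than those inside members with it, and both groups spread widely. Of 49 promoters of 300 bases (250 before the start and 50 after), 12 lay in members marked in neither tissue, and their median CpG count was 25.5, with a range of 8 to 32. The 37 in members with the mark had a median of 6 and a range of 0 to 42. At least 15 CpGs were found in 9 of the 12 and in 8 of the 37. Over all 32619 listed promoters the median was 7. In regions open in all 8 lists the order was the opposite, with a median of 17 over 833 unmarked promoters and of 23 over 11809 marked ones. The 12 unmarked promoters were those of Cd164l2, Elfn2, Gata2, Gm15524, Hs3st2, Ly6g6d, Mir9-3hg, Mlxipl, Neurog3, Noxa1, Phox2a and Wnt1. Neurog3 encodes a proneural factor of the endocrine pancreas and nervous system, and Mir9-3hg is the host transcript of a neural microRNA. The Phox2a and Gata2 promoters had 30 and 32 CpGs in 300 bases, while those of Rufy3 and Jph4 had 2 and 10. With E12.5 replicate 1 left out of the rule, 15 unmarked promoters had a median of 19 CpGs and 44 marked ones a median of 8.5. The comparison was made after the values were seen, and the promoters are not replicates, so no test was made.

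**Figure D5:**
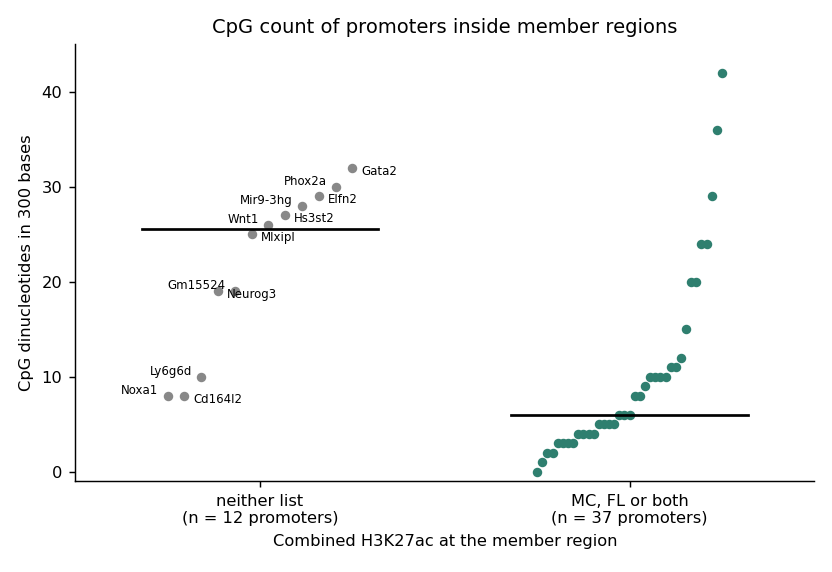
CpG dinucleotides in the 300 bases of each promoter that lies wholly inside a member (points), by H3K27ac of the member in the authors' combined lists, with the median as a line. The 12 promoters marked in neither tissue have a median of 25.5, and the 37 marked in at least 1 tissue have a median of 6.

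Short motifs were counted in the same 49 promoters, on both strands. The homeodomain word TAATTA was in 0 of 49, against 5.25% of all promoters and 1.95% of those in all 8 lists. The PITX word TAATCC was in 0, against 7.04% and 4.79%. The AP-2 word GCCNNNGGC was in 12 (24.5%), against 16.7% of all promoters and 27.4% of those in all 8 lists. In the same order, AP-1 (TGANTCA) was in 6 (12.2%), against 7.85% and 3.99%, SOX (ACAAAG) in 5 (10.2%), against 18.7% and 11.6%, and RUNX (TGTGGT) in 8 (16.3%), against 16.6% and 11.2%. Words were searched separately, so a base could count for more than 1. Matches describe these windows and are not binding sites. A microRNA hairpin lay wholly inside 7 members, namely Mir671, Mir6912, Mir1982, Mir6919, Mir6959, Mir7677 and Mir6977.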

How the data were processed

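Trim Galore, Bowtie2, SAMtools, Genrich (ATAC-seq) and SEACR (CUT&Tag) with the build mm10 are named in the submitters' processing notes, without versions or settings. The deposited ATAC-seq lists give the authors' peak score, never under 200, and the deposited H3K27ac lists give the authors' total and highest signal for each peak. How the authors made the combined lists is not given in the sources used here. Peaks of the 8 ATAC-seq lists were merged, and values came from the best peak in a region. Gene spans of 21631 protein-coding genes and promoters came from RefSeq GRCm38.p6. Python 3.11.15, numpy 2.4.6, pandas 2.3.3, scipy 1.17.1, matplotlib 3.10.9, R 4.3.3 and limma 3.58.1 were used. The fit was also tested on simulated data.

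Members and gene lists were chosen with earlier results of these data known. Named members are the 12 with the best worst rank, those at mandibular, signal, cartilage and hypertrophy genes, those in the Sox9 deserts, up to 8 with MC H3K27ac alone and 4 with FL alone, and genes with at least 3 members. Hi-C and 4C samples were not analysed here. One member that this rule names is not reported here.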

Additional observations from a re-analysis of the deposited data

How the results depend on the processing

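The number of members depended on the lists. It was 238 with a score of at least 300, 65 where jaw peaks had to cover at least 50% of the region, 124 with all 3 MC lists, 220 with a peak in the combined MC list too, and 334 with every list cut to equal length. Of the 238, 56 overlapped a member. Leaving out each library in turn gave 222 to 1378 regions, lowest without MC replicate 3 and highest without E12.5 replicate 2. The same step gave a gene end share of 10.4 to 24.8%, H3K27ac shares of 57.7 to 80.7% (MC) and 52.4 to 78.8% (FL), and 4 to 16 mandibular genes. The gene end share was 29.8% within 2.5 kb, 14.4% for listed transcription starts and 17.7% with a combined MC peak. With the stronger part of each combined H3K27ac list the shares were 63.6% in MC and 61.5% in FL. They were 68.6% in MC with a shared base and 64.1% in FL with a combined MC peak. Alternatives with a shared base or a combined MC peak, and the transcription starts, were chosen after seeing the data.

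In the limma comparison 0 regions and 0 members passed in every alternative run: the other window, both other pseudocounts, no filter, no scaling, and each library left out. Unadjusted p under 0.05 in limma was reached by 0 to 14 members. The 14 came from the run with no filter, out of 432 members, where 6382 of 145187 regions reached it. Replicate numbers did not pair the libraries, with correlations of same-numbered deviations of -0.008 to 0.010, and the fit with the replicate number as a block called 0 members and 0 regions. Motifs at the centres of distal members were not run, since no genome was used here. Unknown depth limits what an absent FL peak shows.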
